A study of Mus musculus with 56 samples.

Results

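Wild-type mouse testis was compared with wild-type mouse liver by bulk RNA sequencing, using 3 testis samples and 3 liver samples, which are 6 of the 56 samples of a study of FMRP and MBNL1. Members were all samples that the labels call testis or liver and WT. Earlier results of these data were known when this pair of groups was chosen. No knockout sample and no transfected cell was used. Both groups are untreated tissue of WT mice, and age, strain and sex are not given in the labels. Tissue powder was homogenized in TRIzol, the RNA was treated with DNase, and a service company made and sequenced the libraries of both tissues. Nothing in the labels says that replicates came from separate animals, so p-values measure only the spread between these samples.

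The testis makes sperm in long tubules, where spermatogonia divide, enter meiosis as spermatocytes and are reshaped as spermatids into sperm. Sertoli cells nurse the germ cells inside the tubule, and Leydig cells between the tubules make testosterone. The liver consists mostly of hepatocytes, which secrete the proteins of blood plasma, make glucose and bile acids, dispose of ammonia as urea and break down drugs. Its other cells line the sinusoids, engulf particles or store vitamin A.

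The table of testis counts listed 15960 genes and that of liver counts listed 12259 genes, each with whole read counts. Over all listed genes, testis libraries held 13971954, 15879775 and 14119104 counts and liver libraries 14754176, 16168225 and 13473200. Of the genes, 11348 were in both tables, 4612 only in the testis table and 911 only in the liver table. A gene that a table leaves out was not given a count of 0, because the reason for leaving it out is not stated. The lowest sum over all 6 libraries of a table, knockout included, was 26 counts in the testis table and 25 in the liver table. Genes listed only for testis took 28.7% to 29.7% of the testis counts, and genes listed only for liver took 25.2% to 27.3% of the liver counts. Replicates correlated at 0.993 to 0.995 in testis and 0.969 to 0.981 in liver (Pearson, across genes, on log2 of scaled counts), against 0.319 to 0.354 between the tissues. The spread between replicates was smaller in testis, with a biological coefficient of variation of 5.97%, than in liver, with 22%.

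Levels below are in CPM, the counts of a gene relative to its library, with totals scaled by TMM factors so that genes listed in both tables are centred between the tissues. Differences are log2 fold changes of testis over liver with their standard error (SE). Levels of different genes are compared in the deposited TPM (transcripts of a gene relative to all transcripts of a library), which are per transcript length. Some rankings below are by CPM, which take no account of transcript length. A gene was called at an adjusted p under 0.05 in edgeR's quasi-likelihood test, with Benjamini-Hochberg adjustment over all 11305 genes tested. The 2 tables were made separately, so tissue and table cannot be told apart. In bulk RNA, fewer cells of a type and less RNA per cell cannot be told apart either.

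Most genes found in both tissues differed in level. The test called 9443 of 11305 genes (83.5%), of which 4679 (41.4%) stood higher in testis and 4764 (42.1%) in liver. A change of at least 4-fold was called in 4273 genes (37.8%), of which 2134 (18.9%) were higher and 2139 (18.9%) lower in testis. The values of the 3 testis samples and the 3 liver samples did not overlap for 9665 genes (85.5%). The median log2 fold change of all tested genes was -0.03, the median size regardless of direction was 1.48, and 80% of genes lay between -3.16 and 3.10. With so large a background, a share of called genes near 83.5% is no result about a group of genes, and direction and size carry the description that follows. Scaling by table totals with no factor moved the median of all genes up by 0.36 and gave 5384 calls higher and 4020 lower in testis.

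**Figure D1:**
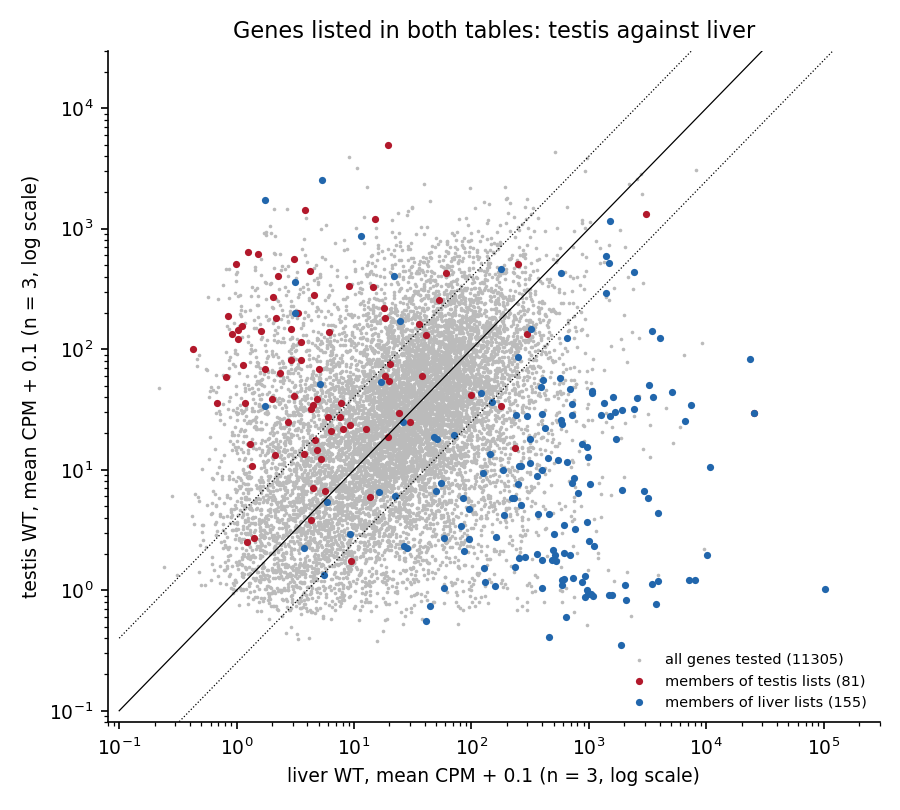
Mean level of each tested gene in testis (vertical axis) and liver (horizontal axis), both in CPM plus 0.1 on log scales, n = 3 per tissue. The solid line marks equal levels and the dotted lines a 4-fold difference. Red points are members of testis gene lists and blue points members of liver gene lists, and grey points all 11305 tested genes. Blue points fall mostly below the lower dotted line.

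The largest difference towards testis was in Slc2a3, a high-affinity glucose transporter (chr6:122727809-122801640 in GRCm38, GENCODE M21). Its level was 1627, 1853 and 1736 CPM in the testis libraries and 0.636, 2.47 and 1.78 CPM in the liver libraries (log2 fold change 10.03, SE 0.34, adjusted p = 3.35e-09). The other 9 of the 10 largest were 4933411K16Rik, Rpgrip1, Mroh2a, Cfap43, Osbp2, Clip4, Spata6, Sh3d21 and Zfp37, with log2 fold changes from 9.07 to 9.47. Of these, Cfap43 belongs to the axoneme of the sperm tail and Spata6 to the connecting piece between sperm head and tail. All 10 stood between 0.119 and 3.61 CPM in every liver library, so their fold changes rest on few liver reads.

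The largest difference towards liver was in Alb (chr5:90460897-90476602), which encodes serum albumin. The liver libraries held 97572, 111478 and 96746 CPM and the testis libraries 1.35, 0.702 and 0.716 CPM (log2 fold change -16.74, SE 0.37, adjusted p = 8.4e-10). Next came Arg1, the arginase that ends the urea cycle, with 1780.0, 1978 and 1849 CPM in liver and 0.252, 0.234 and 0.269 CPM in testis (log2 fold change -12.80, SE 0.21, adjusted p = 8.13e-10). Apoa2 and Cps1 followed, with log2 fold changes of -12.80 and -12.63, then Vtn, Serpina1a, Pzp, Slc38a4, Ambp and Hp, down to -11.68. Differences of at least 8 on the log2 scale numbered 84 towards liver and 39 towards testis among genes listed in both tables. Serpina1a has close copies in the genome, and reads could be split between them.

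The transcript pool of the liver rested on fewer genes than that of the testis. In liver, 84 to 97 genes per library made up 50% of all TPM, and in testis 542 to 565 genes did. The 10 most abundant genes took 21.8% to 22.8% of TPM in liver and 10.4% to 10.9% in testis, with no overlap between the tissues. In testis the first 4 places belonged to genes that pack sperm DNA: Prm1 at 28759 ± 1002 TPM (SD, n = 3), Tnp2 at 16910 ± 814, Prm2 at 16859 ± 729 and Tnp1 at 14364 ± 622. Protamines Prm1 and Prm2 replace histones in the sperm head, and the transition proteins Tnp1 and Tnp2 come before them. Smcp, a protein of the sheath around the mitochondria of the tail, followed at 6282 ± 442 TPM. Insl3, a hormone of Leydig cells, was the most abundant gene among the Leydig and Sertoli cell markers, at 3408 ± 395 TPM. In liver the order began with Alb at 53320 ± 6670 TPM, then Mup20 at 26161 ± 11724, Apoa2 at 25747 ± 4349, Apoe at 21550 ± 3899 and Mup3 at 20971 ± 1929. Mup20, a major urinary protein that liver secretes, was at 31188, 12762 and 34534 TPM, with the second liver library lowest. Alb stood above every other gene in each liver library, while Mup20, Apoa2 and Apoe did not separate beyond their spread.

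**Figure D2:**
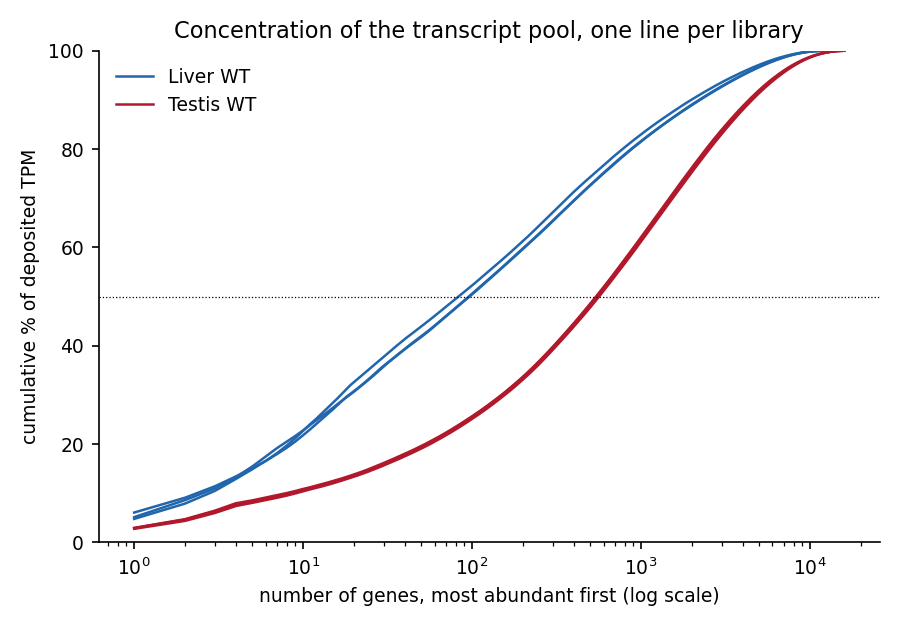
Cumulative share of deposited TPM (vertical axis, percent) against the number of genes counted from the most abundant (horizontal axis, log scale), 1 line per library. The dotted line marks 50%. All 3 liver lines reach it at 84 to 97 genes, and all 3 testis lines at 542 to 565 genes.

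Genes listed in only 1 table have no fold change and no test. They held 42.8% to 44.0% of testis TPM and 30.0% to 33.3% of liver TPM. Among the 4612 listed only for testis, 753 had a mean of at least 100 CPM, and the median was 7.66 CPM. Among the 911 listed only for liver, 242 did, and the median was 8.10 CPM. The 10 highest testis-only genes by CPM were Prm2, Tnp2, Atp8b3, Fhl4, Ldhc, Prm1, Akap4, Tcp11, Smcp and Gsg1. Atp8b3, a lipid flippase of the acrosome, had 3669, 4142 and 4135 CPM. Tcp11, a protein linked to sperm movement, had 2954, 3227 and 3258 CPM. The 10 highest liver-only genes were Serpina3k, Serpina1e, Mup20, Serpina1c, Mup3, Ahsg, Serpina1b, Cyp2e1, Apoa1 and Apob. Serpina3k, a protease inhibitor of plasma, had 27244, 18568 and 29903 CPM, and Ahsg, the carrier protein fetuin, 14649.5, 13591 and 10793 CPM. Serpina1b, Serpina1c, Serpina1e, Mup3 and Mup20 are members of families of near-identical copies, so their separate levels are uncertain.

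Promoters were searched because genes of both sets moved together by tissue. Windows of 250 bases before to 50 bases after each start site came from RefSeq (GRCm38.p6). A window was found for 548 of the 753 testis-only genes and 188 of the 242 liver-only genes at or above 100 CPM. The letters searched, on both strands, included an X-box sequence of 10 bases that holds an RFX half-site (in capitals in Tcp11 below). Next were TGACGTCA, the full cAMP response element bound by CREM, and CAAAGTCCA, an HNF4 recognition sequence. Also searched were TGACGTNA (a looser cAMP response element), TTGCGCAA (a C/EBP palindrome) and an HNF1 site. RFX2 and CREM are regulators of spermatid genes, and HNF4A is a central regulator of hepatocyte genes. The X-box sequence was in 2.74% of these testis-only genes and in none of the liver-only genes, against 0.633% of 27025 genes with a window. CAAAGTCCA was in 4.79% of the liver-only genes and 0.730% of the testis-only genes, against 0.555% of all. TGACGTCA was in 2.74% of the testis-only genes and 0.532% of the liver-only genes, against 2.03% of all. It was in 3.74% of the genes listed in both tables, so it was more frequent in the shared genes than in either set. TGACGTNA was in 2.74% of the testis-only genes and 1.60% of the liver-only genes, against 3.36% of all. TTGCGCAA was in 0.365% of the testis-only genes and in none of the liver-only genes, against 0.207% of all. The HNF1 site was in neither set and in 0.0111% of all genes. Among the testis lists, the X-box sequence was in 1 of 18 regulators of germ cell transcription and translation with a window. It was in none of 43 sperm tail genes, 20 acrosome and gamete fusion genes, 28 synapsis and recombination genes and 15 piRNA pathway genes. Nor was it in any of 16 spermatogonial, 10 chromatin packing, 32 cell division, 9 Leydig cell and 8 Sertoli cell genes. Among the liver lists, CAAAGTCCA was in 3 of 35 drug metabolism genes with a window, 1 of 25 amino acid breakdown genes and 1 of 19 bile acid genes. It was in none of 31 plasma protein genes, 32 coagulation and complement genes, 7 urea cycle genes, 25 glucose and glycogen genes, 22 fatty acid genes and 19 genes for hepatocyte regulators. These shares are descriptions of letters in windows, with no test, and no match says nothing about a factor.

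The following stretches end at the base before an annotated start site and are printed 5′ to 3′ on the gene's strand because they carry such a match in a gene of high or defining level. Capitals mark the match, which in Pck1 is TTACGTCA, a variant of the cAMP response element found with the pattern TGACGTNA on the other strand. The genes are Tcp11 (chr17:28079765-28079864, minus strand), Izumo1, the sperm protein that binds the egg (chr7:45621711-45621810, plus strand), Cyp8b1, the sterol hydroxylase that makes cholic acid (chr9:121916306-121916405, minus strand), Cyp3a11, a drug oxidase (chr5:145879855-145879973, minus strand), Cyp2c70, an enzyme of mouse bile acid hydroxylation (chr19:40187287-40187386, minus strand), and Pck1, the enzyme that starts glucose synthesis from oxaloacetate (chr2:173152973-173153072, plus strand).
Tcp11: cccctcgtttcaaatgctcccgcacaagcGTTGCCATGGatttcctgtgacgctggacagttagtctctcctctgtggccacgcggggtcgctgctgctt
Izumo1: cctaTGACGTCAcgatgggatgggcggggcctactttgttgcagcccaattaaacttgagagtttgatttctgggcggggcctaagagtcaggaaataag
Cyp8b1: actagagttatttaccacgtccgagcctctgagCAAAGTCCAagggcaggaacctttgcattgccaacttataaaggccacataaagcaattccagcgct
Cyp3a11: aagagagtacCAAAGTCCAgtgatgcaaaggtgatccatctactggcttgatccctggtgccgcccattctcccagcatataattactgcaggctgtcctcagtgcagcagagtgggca
Cyp2c70: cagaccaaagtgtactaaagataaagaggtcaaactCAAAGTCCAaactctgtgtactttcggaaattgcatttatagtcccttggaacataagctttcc
Pck1: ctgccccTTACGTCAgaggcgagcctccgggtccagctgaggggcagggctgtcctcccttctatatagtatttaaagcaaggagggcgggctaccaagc

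The first base of the match lay 71 bases before the start site in Tcp11, 96 in Izumo1, 67 in Cyp8b1, 109 in Cyp3a11, 64 in Cyp2c70 and 93 in Pck1. Izumo1 stood at 74.9, 80.0 and 80.9 CPM in testis and was not listed in liver. The 4 liver genes were not listed in testis: Cyp8b1 had 214, 80.8 and 256 CPM, Cyp2c70 1231, 728 and 1612 CPM, Cyp3a11 7134, 7755 and 6912 CPM and Pck1 3299, 5178 and 4679 CPM. In both Cyp8b1 and Cyp2c70 the second liver library was the lowest, and in Pck1 the first was. HNF4A itself, encoded by Hnf4a, was listed in liver only, at 872, 1064 and 966 CPM. Rfx2 was at 576, 653 and 635 CPM in testis and 1.48, 1.62 and 1.19 CPM in liver (log2 fold change 8.74, SE 0.18, adjusted p = 8.13e-10), and Crem at 239, 253 and 276 and 36.4, 55.8 and 65.6 CPM (log2 fold change 2.28, SE 0.20, adjusted p = 2.5e-06).

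Germ cell genes were followed from stem cells to sperm. Spermatogonial markers were the least separated of these lists by median log2 fold change (0.78), though all 5 tested were called. Of 20, 12 were listed only for testis, 1 only for liver, 2 in neither table and 5 were tested, with 3 higher and 2 lower in testis. Dmrtb1, a transcription factor acting at the passage from mitosis to meiosis, was listed only for testis at 656, 739 and 769 CPM, as were the germ cell RNA-binding genes Ddx4 at 663, 719.6 and 726 CPM and Dazl at 242, 215 and 224 CPM. Kit, the receptor of differentiating spermatogonia, was higher in testis, with 38.7, 37.9 and 29.8 against 7.95, 8.27 and 6.90 CPM (log2 fold change 2.20, SE 0.17, adjusted p = 8.16e-07). Gfra1, a receptor of stem spermatogonia, was lower in testis, with 14.4, 14.4 and 16.1 CPM in testis and 205, 222 and 277 CPM in liver (log2 fold change -3.97, SE 0.16, adjusted p = 8.93e-09). Zbtb16 was also lower, but its groups overlapped at 7.49, 4.99 and 5.01 CPM in testis and 5.41, 9.04 and 26.2 CPM in liver, and without the third liver library its log2 fold change of -1.20 became -0.32 (adjusted p = 0.335).

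Genes of meiosis were higher in testis or listed only there. Of 35 synapsis and recombination genes, 20 were testis-only, 5 in neither table and 10 tested, of which 9 were higher, none was lower and Prdm9 was not called. Their median log2 fold change was 2.32, against -0.03 for all genes. Stag3, a subunit of the meiotic cohesin ring, had 649.6, 687 and 687 CPM, and Sycp2, part of the lateral element of the synaptonemal complex, 472, 463 and 511 CPM. Smc1b and Syce1, another cohesin subunit and a central element protein, had 367, 385 and 421 and 358, 415 and 433 CPM. The piRNA pathway, which silences transposons in germ cells with small RNAs bound to PIWI proteins, had 15 of 20 genes listed only for testis and 4 tested, all higher. Mael had 1384, 1459 and 1550.0 CPM, Tdrd6 1082, 1270.2 and 1241 CPM and Piwil1 481, 522 and 533 CPM. Tdrd7, a Tudor protein of the germ granule that the liver also expresses, had 413, 441 and 444 CPM in testis and 54.6, 63.9 and 63.1 CPM in liver (log2 fold change 2.84, SE 0.12, adjusted p = 1.3e-08).

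Cell division genes separated widely, as 28 of 30 tested members were higher in testis, 20 of them at least 4-fold, with a median log2 fold change of 4.08. A further 8 of the 38 were listed only for testis. Nek2, a kinase of the centrosome, had 266, 298 and 278 CPM in testis and 5.20, 5.42 and 2.85 CPM in liver (log2 fold change 5.95, SE 0.22, adjusted p = 5.35e-09). Top2a, the topoisomerase of dividing cells, had 271, 279 and 267 and 2.01, 1.14 and 2.62 CPM (log2 fold change 7.16, SE 0.23, adjusted p = 2.7e-09). Aurka, a spindle kinase, had a log2 fold change of 5.95 and Mcm7, part of the DNA replication helicase, of 3.61. Tyms, which makes thymidylate for DNA synthesis, went the other way with 1.85, 1.79 and 1.34 CPM in testis and 10.6, 8.56 and 8.68 CPM in liver (log2 fold change -2.47, SE 0.23, adjusted p = 4.33e-06). Cenpa was the 1 tested member not called.

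Genes of spermatids were mostly absent from the liver table. Of 24 regulators of germ cell transcription and translation, 14 were testis-only and the other 10 were all higher in testis, with a median log2 fold change of 3.71. Ybx2, which stores mRNA in germ cells, had 2075, 2422 and 2476 CPM. Hspa2, a chaperone of meiotic and later germ cells, had 1336, 1496 and 1477 CPM in testis and 1.59, 7.51 and 2.14 CPM in liver (log2 fold change 8.54, SE 0.49, adjusted p = 1e-07). Of 25 acrosome and gamete fusion genes, 22 were testis-only and both tested members were higher. Adam3, needed for sperm to reach and bind the egg coat, had 1620.4, 1794 and 1834 CPM, and Acrbp, which binds the acrosomal protease proacrosin, had 508, 579 and 593 CPM in testis and 1.38, 4.57 and 3.09 CPM in liver (log2 fold change 7.52, SE 0.32, adjusted p = 1.29e-08). Of 51 sperm tail genes, 39 were testis-only, 6 were in neither table and all 6 tested were higher, with a median log2 fold change of 7.77. Odf2, a protein of the outer dense fibres, had 4563, 5141 and 5186 CPM in testis and 14.7, 26.2 and 17.6 CPM in liver (log2 fold change 7.99, SE 0.26, adjusted p = 3.16e-09). Akap4, the main protein of the fibrous sheath, was testis-only at 3226, 3350.0 and 3672 CPM. Of 16 chromatin packing genes, 13 were testis-only and 3 were tested, with 1 higher and 2 not called. Summed over the 6 tested members, sperm tail genes reached 7317 to 8208 CPM in testis and 37.4 to 48.9 CPM in liver. With the 39 testis-only members the testis sum was 30911 to 34422 CPM.

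**Figure D3:**
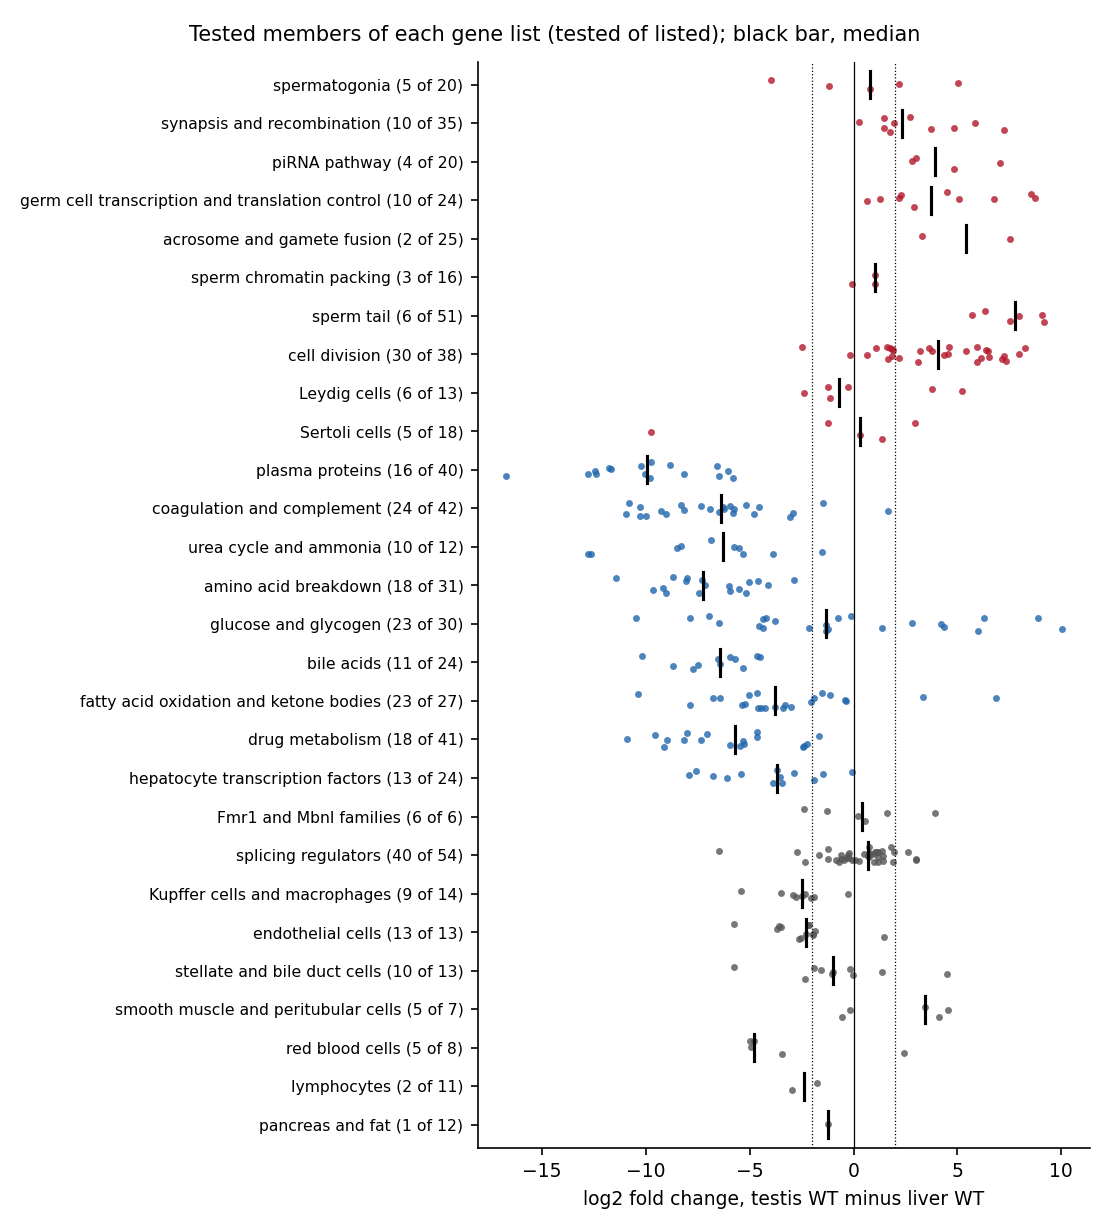
Log2 fold changes (testis minus liver, horizontal axis) of the tested members of each gene list, 1 point per gene, with the median as a black bar. Red lists are testis lists, blue lists liver lists and grey lists others; brackets give tested of listed members, and dotted lines mark 4-fold. Medians run from -9.94 in plasma proteins to 7.77 in the sperm tail list.

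Markers of the somatic cells of the testis were split, and several of them were at least as high in liver. Of 13 Leydig cell genes, 7 were testis-only, 2 of 6 tested were higher and 3 were lower in testis. Insl3 was testis-only at 983, 911 and 836 CPM. Cyp17a1, an enzyme of androgen synthesis, had 403, 326 and 267 CPM in testis and 8.80, 3.80 and 14.4 CPM in liver (log2 fold change 5.23, SE 0.40, adjusted p = 8.24e-07). Star, which moves cholesterol into mitochondria for steroid synthesis, had 77.6, 74.4 and 52.7 and 2.55, 6.56 and 5.71 CPM (log2 fold change 3.78, SE 0.30, adjusted p = 1.1e-06). In Insl3, Cyp17a1 and Star the first testis library was the highest and the third the lowest. Fdx1, the electron carrier of mitochondrial P450 enzymes, and Scarb1, the receptor for high-density lipoprotein, were lower in testis, with log2 fold changes of -2.39 and -1.15. Of 18 Sertoli cell genes, 13 were testis-only, 2 of 5 tested were higher and 2 lower. Inha, the inhibin alpha subunit, had 107, 97.1 and 91.6 CPM, and Defb19 107, 84.3 and 93.5 CPM, both testis-only. Clu and Trf are secreted by Sertoli cells and also by hepatocytes. Clu had 1461, 1274 and 1215 CPM in testis and 3396, 2736 and 3136 CPM in liver (log2 fold change -1.23, SE 0.14, adjusted p = 1.92e-05), and Trf, the iron carrier transferrin, 34.9, 30.1 and 23.6 and 27181, 24126 and 24561 CPM (log2 fold change -9.74, SE 0.25, adjusted p = 1.16e-09). Sox9, the transcription factor of Sertoli cells and of bile ducts, was higher in testis at 27.1, 24.2 and 19.1 against 7.0, 9.89 and 10.6 CPM (log2 fold change 1.36, SE 0.21, adjusted p = 0.000143).

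Plasma protein genes were the most separated list. Of 40, 24 were listed only for liver and all 16 tested were lower in testis, with a median log2 fold change of -9.94. These 16 summed to 179066 to 204348 CPM in the liver libraries and 205 to 236 CPM in the testis libraries. All 40 summed to 361338 to 395531 CPM in the liver libraries. Apoe, an apolipoprotein that other tissues make too, had 28124, 23988 and 18110.4 CPM in liver and 87.2, 85.9 and 75.8 CPM in testis (log2 fold change -8.14, SE 0.25, adjusted p = 2.35e-09). Apoa1, the core protein of high-density lipoprotein, was liver-only at 13371, 9788 and 8605 CPM, and Apob, that of the lipoproteins exporting fat from the liver, at 7128, 8604 and 12445 CPM. Among 42 coagulation and complement genes, 16 were liver-only and 23 of 24 tested were lower in testis, with a median of -6.37. The fibrinogen chains Fga, Fgb and Fgg were liver-only, at 8964, 6848 and 7060.2 CPM, 7719, 6387 and 6828 CPM and 5936, 4859 and 5741 CPM. C3, the central complement protein, had 10284, 11358 and 10619.8 CPM in liver and 9.76, 10.8 and 10.7 CPM in testis (log2 fold change -10.01, SE 0.19, adjusted p = 8.13e-10). Cd55, which protects cells from complement, was the exception, with 54.9, 50.1 and 54.3 CPM in testis and 12.2, 21.1 and 17.5 CPM in liver (log2 fold change 1.65, SE 0.19, adjusted p = 1.96e-05). Cd59b, another protector from complement, and C7 were listed only for testis.

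Tested genes of nitrogen and amino acid metabolism were lower in testis. Of 12 urea cycle and ammonia genes, all 10 tested were lower, with a median log2 fold change of -6.31. Of the other 2, Otc was liver-only and Arg2, the second arginase gene, testis-only at 0.841, 0.702 and 0.448 CPM. Cps1, which captures ammonia for the urea cycle, had 5423, 6894 and 9156 CPM in liver and 1.09, 1.09 and 1.16 CPM in testis (log2 fold change -12.63, SE 0.32, adjusted p = 1.09e-09). Ass1, the enzyme joining citrulline to aspartate, kept a clearer testis level at 55.6, 42.1 and 34.8 CPM against 5492, 5022 and 4809 CPM (log2 fold change -6.85, SE 0.23, adjusted p = 3.13e-09), and Glud1, glutamate dehydrogenase, had 30.7, 29.8 and 22.6 against 1541, 1579.9 and 1406 CPM. Of 31 amino acid breakdown genes, 13 were liver-only and 18 of 18 tested were lower, with a median of -7.23. Tat, tyrosine aminotransferase, was liver-only at 1967, 4866 and 3237 CPM and lowest in the first liver library. Bhmt, which remakes methionine from homocysteine, had 125, 132 and 112 CPM in testis and 4356, 2145 and 5603 CPM in liver (log2 fold change -5.03, SE 0.34, adjusted p = 3.42e-07), and Ahcy, which yields that homocysteine, 51.7, 51.3 and 46.8 and 3048, 2971 and 3680.5 CPM (log2 fold change -6.02, SE 0.17, adjusted p = 1.4e-09).

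Bile acid and drug genes followed the same direction, and most fatty acid genes did. Of 24 bile acid genes, 13 were liver-only and all 11 tested were lower in testis (median -6.45). Scp2, a peroxisomal thiolase and sterol carrier, had 8113, 5843 and 8251 CPM in liver and 38.4, 32.8 and 32.8 CPM in testis (log2 fold change -7.74, SE 0.22, adjusted p = 1.65e-09), and Slco1b2, an uptake transporter for bile acids, was liver-only at 1803, 2314 and 2840.5 CPM. Of 41 drug metabolism genes, 22 were liver-only and all 18 tested were lower (median -5.71). Cyp2e1, the P450 that oxidizes ethanol, was liver-only at 9065, 11866 and 11533 CPM, and Gstp1, a glutathione transferase, had 8759.9, 4923 and 6190.0 CPM in liver and 30.9, 23.9 and 21.8 CPM in testis (log2 fold change -8.02, SE 0.30, adjusted p = 5.95e-09). Among 27 genes of fatty acid oxidation and ketone bodies, 21 of 23 tested were lower and 2 higher (median -3.80), 3 were testis-only (Cpt1c, Oxct2a and Oxct2b) and 1, Fabp1, was liver-only. The higher ones were Cpt1b, a carnitine palmitoyltransferase (log2 fold change 6.86, SE 0.29, adjusted p = 1.19e-08), and Oxct1. Oxct1, which lets tissues burn ketone bodies, was at 55.3, 47.5 and 52.3 CPM in testis and 6.36, 4.37 and 4.28 CPM in liver (log2 fold change 3.36, SE 0.18, adjusted p = 7.09e-08). Acsl1, which activates fatty acids, was close in both, at 1109, 1170.3 and 1195 CPM in testis and 1407, 1453 and 1666 CPM in liver (log2 fold change -0.38, SE 0.12, adjusted p = 0.0154), and its call was lost with table totals (log2 fold change -0.03, adjusted p = 0.841).

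Regulators of hepatocyte genes were liver-only in 11 of 24 cases and lower in testis in 12 of 13 tested (median -3.68). Cebpa had 882, 717 and 694 CPM in liver and 3.28, 2.88 and 3.22 CPM in testis (log2 fold change -7.93, SE 0.18, adjusted p = 8.81e-10), and Rxra, the partner of many nuclear receptors, 766, 623 and 682 and 48.9, 45.5 and 45.8 CPM (log2 fold change -3.88, SE 0.13, adjusted p = 3.76e-09). Creb3l3, a membrane-bound factor of lipid metabolism, was liver-only at 614, 439 and 465 CPM. Of the forkhead factors, Foxa3 had 107, 67.0 and 83.3 CPM in liver and 1.94, 2.03 and 2.06 CPM in testis (log2 fold change -5.41, SE 0.22, adjusted p = 1.09e-08), and Foxa1 and Foxa2 were liver-only.

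Markers of cells that either tissue could hold were measured beside these lists. Macrophage genes were lower in testis in 8 of 9 tested. Over these 9, sums were 467 to 683 CPM in liver and 109 to 127 CPM in testis. Clec4f, the marker of Kupffer cells, was listed only for liver at 205, 134 and 154 CPM, and Cd5l had 180.5, 124 and 142 CPM in liver and 3.62, 3.51 and 3.13 CPM in testis (log2 fold change -5.43, SE 0.20, adjusted p = 4.87e-09). Endothelial genes were lower in 12 of 13, with sums of 393 to 508 CPM in liver and 85.7 to 97.4 CPM in testis. Eng, a receptor of vessel lining, had 122, 113 and 84.8 and 9.42, 8.89 and 7.97 CPM (log2 fold change -3.60, SE 0.18, adjusted p = 3.12e-08), while Vwf, the clotting carrier of vessels outside sinusoids, was higher in testis at 21.5, 21.1 and 23.5 against 8.06, 7.89 and 7.61 CPM (log2 fold change 1.49, SE 0.15, adjusted p = 6.22e-06). Globins were lower in testis: Hba-a2 had 14.4, 24.5 and 23.7 CPM in testis and 481, 423 and 1003 CPM in liver (log2 fold change -4.93, SE 0.38, adjusted p = 8.69e-07), with the third liver library highest. Bpgm, which makes the phosphate that tunes hemoglobin, went the other way (log2 fold change 2.45, SE 0.16, adjusted p = 2.06e-07). Genes of smooth muscle and the tubule wall were higher in testis in 3 of 5 tested, among them Acta2 at 46.9, 47.0 and 46.1 against 1.59, 3.14 and 3.21 CPM (log2 fold change 4.14, SE 0.22, adjusted p = 6.5e-08), and Actg2 was testis-only at 291, 304 and 342 CPM. Tagln was the 1 member called lower (10.3, 10.3 and 8.77 CPM in testis, 10.6, 15.2 and 17.5 CPM in liver), and over the alternatives its adjusted p ran from 0.0018 to 0.397. Of 13 stellate and bile duct genes, 6 of 10 tested were lower in testis; Spp1 had 108, 45.6 and 79.2 CPM in liver and 2.19, 1.01 and 1.07 CPM in testis, and Epcam, an adhesion molecule of epithelia and spermatogonia, 32.2, 36.4 and 32.8 CPM in testis and 1.80, 1.62 and 0.951 CPM in liver (log2 fold change 4.51, SE 0.22, adjusted p = 2.93e-08). Neighbouring organs left little signal: epididymis genes summed to 8.42 to 9.74 CPM in testis with 7 of 10 not listed in either table, and pancreas and fat genes to 7.07 to 7.87 CPM in testis and 20.8 to 35.3 CPM in liver, mostly Cela1. Lymphocyte genes listed for each tissue, which differ, summed to at most 7.43 CPM in testis and 21.7 CPM in liver. The part of these cells in the liver and testis lists was not tested.

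In sugar metabolism, different members of the same gene families led in the 2 tissues. Of 30 glucose and glycogen genes, 6 were liver-only and 23 were tested, with 8 higher and 14 lower in testis (median -1.34). Hepatocytes take up glucose through Slc2a2, which had 187 ± 53.4 TPM in liver and 0.173 ± 0.108 TPM in testis (log2 fold change -10.49, SE 0.36, adjusted p = 3.76e-09). Slc2a3 had 627 ± 30.0 TPM in testis and 0.423 ± 0.257 TPM in liver, so it held 0.226% of the pair's TPM in liver and nearly all of it in testis. Hk1, the hexokinase of most tissues, had 882 ± 30.5 TPM in testis and 1.28 ± 0.645 TPM in liver (log2 fold change 8.90, SE 0.32, adjusted p = 4.54e-09). Slc2a5, a fructose transporter, had 789, 905 and 939 CPM in testis and 8.48, 9.51 and 16.4 CPM in liver (log2 fold change 6.27, SE 0.26, adjusted p = 1.17e-08). Pklr, the liver form of pyruvate kinase, was liver-only at 119 ± 23.2 TPM. Its partner Pkm was higher in testis, with a log2 fold change of 4.23, as was the aldolase gene Aldoa, with 1.37. Fbp1, an enzyme of glucose synthesis, was high in both tissues at 644 ± 8.92 TPM in testis and 1068 ± 68.7 TPM in liver (log2 fold change -1.24, SE 0.12, adjusted p = 6.08e-06). Glycogen genes were low in testis: Pygl had 3.30 ± 0.277 against 294 ± 32.5 TPM, and Gys1 had 0.833 ± 0.110 against 0.997 ± 0.0907 TPM.

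For many enzymes of energy metabolism, a second gene that is known to be active in male germ cells outweighed the common one in testis. Phosphoglycerate kinase was encoded mainly by X-linked Pgk1 in liver, at 283 ± 24.8 TPM, while in testis Pgk1 had 18.0 ± 2.65 TPM and the testis-only Pgk2 1215 ± 19.0 TPM, or 98.5% of the pair. Pgk1 itself was lower in testis (log2 fold change -4.49, SE 0.16, adjusted p = 5.05e-09). Gapdh, a glycolytic enzyme often used as a reference gene, had 161 ± 23.0 TPM in testis and 1879 ± 125 TPM in liver (log2 fold change -4.07, SE 0.16, adjusted p = 6.8e-09), and Gapdhs, its sperm form, 2421 ± 34.5 TPM in testis. The pyruvate dehydrogenase subunit pair showed 4.84 ± 0.739 TPM of X-linked Pdha1 and 129.7 ± 3.65 TPM of Pdha2 in testis, and 75.9 ± 12.7 TPM of Pdha1 in liver (log2 fold change -4.48, SE 0.16, adjusted p = 5.32e-09). Lactate dehydrogenase differed in kind, since Ldha was higher in testis too (log2 fold change 0.45, SE 0.14, adjusted p = 0.0116) and Ldhc came on top of it, at 4675 ± 101 against 1010.0 ± 17.4 TPM. In the respiratory chain, Cox8c held 94.0% of the pair with Cox8a in testis, Cox6b2 89.0% with Cox6b1 and Cyct 83.2% with Cycs, and all 3 common genes were lower in testis, by -4.01, -3.65 and -1.97 on the log2 scale. Of the carnitine palmitoyltransferases, which admit fatty acids to mitochondria, Cpt1a led in liver at 132 ± 20.7 TPM and Cpt1b in testis at 182 ± 4.43 TPM. Cpt1b held 90.5% of the pair in testis and 0.840% in liver.

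**Figure D4:**
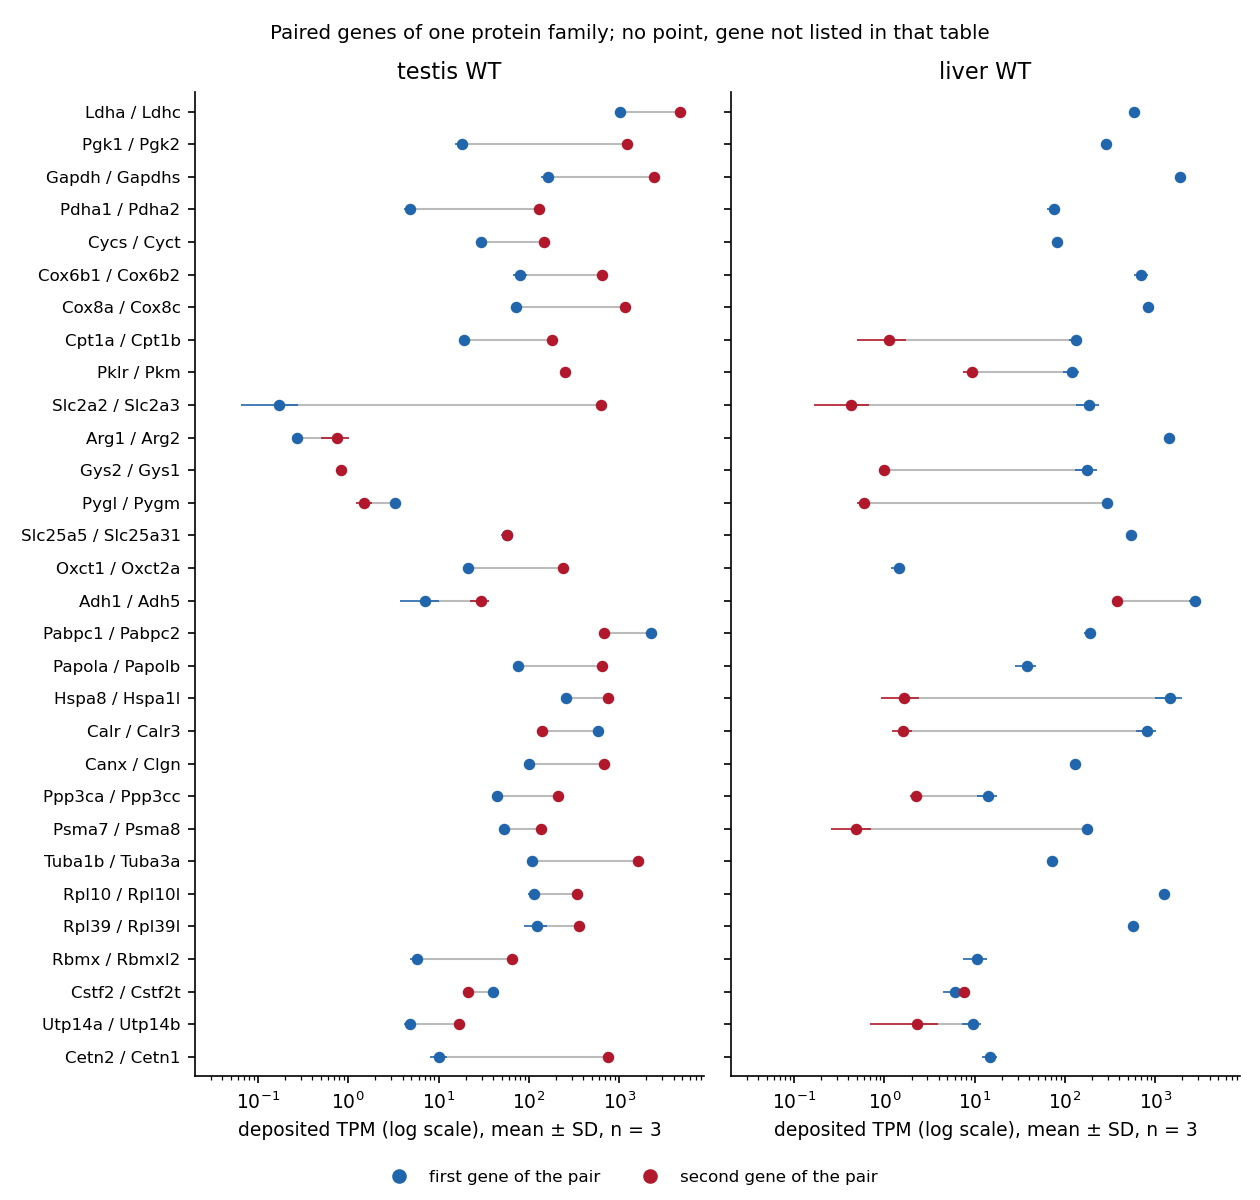
Deposited TPM (horizontal axes, log scale, mean with SD, n = 3) of both genes of each pair in testis (left) and liver (right); blue is the first and red the second gene named, and a missing point means the gene was not listed in that table. In testis most red points lie to the right of the blue ones, with Pabpc2, Calr3, Cstf2t and Pygm as exceptions.

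The other pairs, some of them also of energy metabolism, gave a mixed picture. Cetn1, a centrin of the sperm centriole, held 98.7% of its pair with Cetn2 in testis, Tuba3a 93.7% with the alpha tubulin Tuba1b, and Papolb, a cytoplasmic poly(A) polymerase, 89.4% with Papola. Tuba3a has a near-identical copy, so its level is uncertain. Clgn, the germ cell chaperone calmegin, held 87.1% with Canx. Rpl10l, an autosomal copy of the X-linked ribosomal gene Rpl10, held 74.9%, and Rpl10 was lower in testis (log2 fold change -3.97, SE 0.14, adjusted p = 4.78e-09). Psma8, a proteasome subunit of meiotic cells, held 71.9% with Psma7 in testis and 0.275% in liver. Hspa1l, a heat shock chaperone, held 74.5% with Hspa8 in testis and 0.113% in liver. The pair of mitochondrial ADP/ATP carriers was even in testis, with Slc25a31 at 50.2%, and Pygm held 31.4% with the glycogen phosphorylase Pygl. Pabpc1, the main poly(A)-binding protein, was itself higher in testis (log2 fold change 3.07, SE 0.15, adjusted p = 2.68e-08) and its partner Pabpc2 held 23.1%. Calr3 held 19.5% with Calr, and Cstf2t, an autosomal copy of the X-linked polyadenylation gene Cstf2, held less in testis (35.1%) than in liver (55.8%). The arginase Arg2 was low at 0.757 ± 0.252 TPM, and Fbp2, Eef1a2 and Gk were in neither table.

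Genes of chromosome X were more often lower in testis than autosomal genes, and more often listed only for testis. The X and Y chromosomes are known to be silenced in spermatocytes during meiosis. Of 311 tested protein-coding X genes, 72 (23.2%) were higher and 185 (59.5%) lower in testis, against 42.1% and 41.9% of 10338 autosomal genes. The median log2 fold change was -1.0 on X and -0.01 on autosomes. Across the 19 autosomes the share called lower ran from 33.5% on chromosome 12 to 47.1% on chromosome 6. Yet 270 X genes were testis-only, which is 46.2% of the X genes in the testis table against 24.1% for autosomes. Few of them were abundant: 2.96% of the testis-only X genes had at least 100 CPM, against 20.4% of the autosomal ones. These shares are descriptions without a test, since neighbouring genes are not independent.

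**Figure D5:**
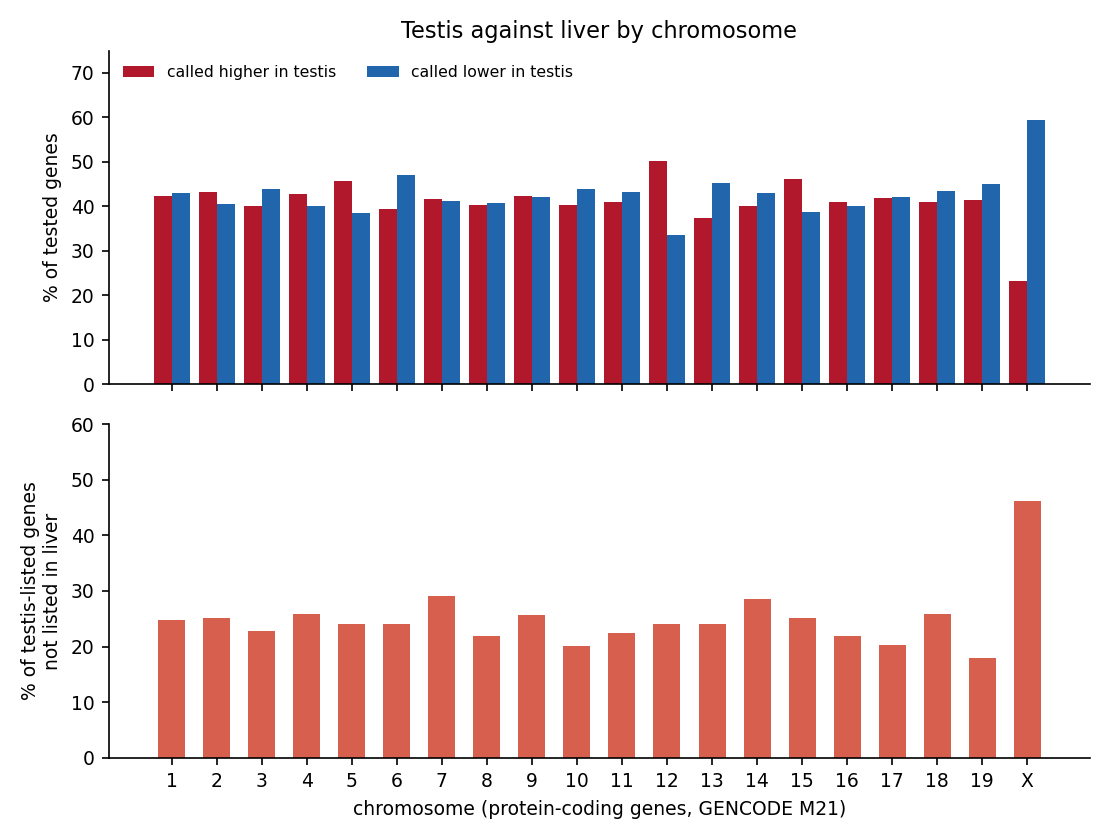
Upper panel, percent of tested protein-coding genes per chromosome called higher (red) or lower (blue) in testis. Lower panel, percent of the genes in the testis table that the liver table does not list. Chromosome Y, with 4 tested genes, is not drawn. Among the chromosomes drawn, X is lowest for higher calls, at 23.2%, and highest in both other measures, at 59.5% and 46.2%.

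The X genes below were picked after their values were seen. Maob, a monoamine oxidase, had 215, 296 and 267 CPM in liver and 2.69, 3.51 and 2.06 CPM in testis (log2 fold change -6.54, SE 0.23, adjusted p = 3.78e-09). Cox7b, a subunit of cytochrome c oxidase, had 228, 206 and 152 and 6.06, 3.74 and 4.21 CPM (log2 fold change -5.38, SE 0.24, adjusted p = 1.71e-08). On the other side, Gpm6b, a membrane proteolipid, had 49.3, 50.7 and 43.2 CPM in testis and 0.530, 1.05 and 1.66 CPM in liver (log2 fold change 5.48, SE 0.27, adjusted p = 3.32e-08), and Rpgr, a protein of cilia, 84.2, 83.2 and 92.9 and 2.97, 2.28 and 3.21 CPM (log2 fold change 4.95, SE 0.17, adjusted p = 3.56e-09). By CPM, Akap4 was by far the highest testis-only X gene. Tsga8 at 242, 250.3 and 258 CPM and the histone gene H2afb1 at 202, 202 and 207 CPM came next. On chromosome Y, 21 genes were testis-only and 4 were tested, all 4 lower in testis.

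Fmr1 encodes FMRP, the RNA-binding protein missing in fragile X syndrome, and the MBNL proteins regulate splicing and RNA localization. Fmr1, which is X-linked (chrX:68678541-68717963), had 45.2, 42.2 and 41.1 CPM in testis and 30.5, 39.6 and 40.7 CPM in liver, and was not called (log2 fold change 0.21, SE 0.14, adjusted p = 0.185, 95% interval -0.11 to 0.54). All testis values lay above all liver values, and with table totals in place of TMM it was called higher in testis (0.57, adjusted p = 0.00539). Its autosomal paralog Fxr1 had 1126, 1195 and 1261 CPM in testis and 68.2, 89.7 and 75.8 CPM in liver (log2 fold change 3.94, SE 0.15, adjusted p = 6.47e-09), far outside the spread of either group. Fxr2 had 96.4, 110.0 and 107 and 72.0, 70.6 and 71.0 CPM (log2 fold change 0.55, SE 0.11, adjusted p = 0.00123). In TPM, testis held 822 ± 18.6 of Fxr1, 51.3 ± 2.12 of Fxr2 and 13.9 ± 1.19 of Fmr1, and liver 39.3 ± 7.41, 24.6 ± 1.10 and 8.47 ± 1.68. Mbnl1 was lower in testis, at 33.1, 32.8 and 28.4 against 116, 145 and 228 CPM (log2 fold change -2.37, SE 0.23, adjusted p = 6.15e-06), and so was Mbnl2, at 31.6, 27.1 and 29.0 against 55.4, 56.6 and 98.3 CPM (log2 fold change -1.26, SE 0.22, adjusted p = 0.00041). For both the third liver library was the highest. Mbnl3 was higher in testis at a low level, 3.87, 3.51 and 4.30 against 1.17, 1.52 and 1.07 CPM (log2 fold change 1.61, SE 0.27, adjusted p = 0.00033).

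Of 54 other splicing regulators, 40 were tested, with 23 higher and 11 lower in testis and a median log2 fold change of 0.71, and 10 were testis-only. Hnrnpu, a nuclear scaffold and splicing protein, had 789.7, 889 and 883 CPM in testis and 267, 352 and 328 CPM in liver (log2 fold change 1.44, SE 0.14, adjusted p = 4.78e-06). Qk, a regulator of exon choice and circular RNA, had 289, 317 and 318 and 89.9, 123 and 138 CPM (log2 fold change 1.39, SE 0.16, adjusted p = 1.92e-05), and Hnrnpf a log2 fold change of 0.99. Esrp2, the epithelial splicing regulator of hepatocytes, was lower in testis, at 1.09, 0.857 and 1.25 against 100.2, 89.5 and 94.3 CPM (log2 fold change -6.46, SE 0.18, adjusted p = 1.41e-09), as was Rbm47 (log2 fold change -2.73, SE 0.14, adjusted p = 4.54e-08). Srrm4, known from neurons, was low in both, with 2.78, 3.74 and 3.76 CPM in testis and 10.8, 12.5 and 28.9 CPM in liver (log2 fold change -2.33, SE 0.38, adjusted p = 0.000253). Hnrnpk had 377, 369.7 and 365 CPM in testis and 366, 401 and 386 CPM in liver and was not called (log2 fold change -0.05, SE 0.11, adjusted p = 0.65).

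Few genes were shown to be alike. For 482 of the 11305 genes (4.26%), the 95% interval of the log2 fold change lay inside -0.5 to 0.5. Without 1 testis library this number was 208 to 248, and without the first liver library it was 690. The 5 genes nearest 0 among those with at least 100 CPM in both tissues were Klhdc10, Setd3, Pink1, Rab11b and Camk2n1. Rab11b, a GTPase of membrane recycling, had 114, 111 and 113 CPM in testis and 113, 112 and 112 CPM in liver (95% interval -0.24 to 0.23). Pink1, a kinase that marks damaged mitochondria, had 234, 255 and 235 and 279, 251 and 196 CPM (95% interval -0.32 to 0.32). Setd3, which methylates actin, had 140.4, 145 and 149 and 141, 142 and 150.3 CPM (95% interval -0.23 to 0.24). These values are alike on the TMM scale only: in TPM, Setd3 stood at 78.1 ± 0.762 in testis and 54.9 ± 4.02 in liver.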

How the data were processed

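RNA of 3 testis and 3 liver samples of WT mice was used. The authors deposited read counts per gene and, in the same tables, TPM values, per the file headers. Per the submitters' processing notes, which give no roles or order, the tools were CASAVA, FastQC 0.11.8, Trimmomatic 0.39, Bowtie2 2.3.5, STAR 2.6.1, RSEM 1.3.1 and DESeq2 1.16.1, with GRCm38 (mm10). Strand use in counting is not given in the sources used here, so overlapping and antisense genes cannot be separated. The 24 other per-sample columns of the 2 tables (knockout and normalized values) were not used.

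Counts were joined by symbol, filtered with filterByExpr (43 of 11348 genes left out), scaled with TMM over joined genes and tested with edgeR 4.0.16 (quasi-likelihood F test, limma 3.58.1, R 4.3.3, and the package data.table, version 1.17.8), fitting the 6 samples with tissue as the only term. CPM are counts over the TMM-effective total of joined genes and are given on the same scale for genes listed for 1 tissue. SE is the log2 fold change over the root of F. Counts limit the precision of rare genes, and intervals come from the fit. DESeq2 1.42.0 and other settings were alternatives. The fit was tested on simulated counts. Libraries of a tissue differed by more than sampling noise (chi-square per gene 2.70 to 4.77 in testis, 30.8 to 47.0 in liver), so none was counted as a duplicate. Figures used matplotlib 3.10.9 under Python 3.11.15.

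Members, gene lists and pairs were chosen with earlier results of these data known. Named genes were Fmr1, the 4 most abundant members of each list and up to 3 called against its majority, every pair, the 10 largest changes each way without overlap and with a mean of at least 50 counts, the 10 highest of each table alone, and the 5 nearest 0 with at least 100 CPM. Kit, Crem, Rfx2, Foxa1, Foxa2, Foxa3, Cenpa, Prdm9, Cd59b, C7, Otc, Cpt1c, Oxct2b, Izumo1, Cyp8b1, Cyp2c70 and the X genes were named after their values were seen. Some members that the rule names are not reported here. Of 16871 symbols, 16061 (95.2%) matched 1 gene of GENCODE M21 (GRCm38). The comparison of skipped exons was not made, because no header states which junction reads are WT.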

Additional observations from a re-analysis of the deposited data

How the results depend on the processing

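Counts of called genes kept within 1.5 times under all alternatives run. The number of called genes was 9436 with RLE size factors, 9456 with no filter, 8741 of 10179 with a mean of at least 50 counts, 9365 with DESeq2 and 8931 to 9637 leaving out a library. Table totals with no factor gave 9404 calls, 57.3% of them higher in testis against 49.5% with TMM, and 47 called genes changed sign. A test against a 4-fold change gave 3504 genes. The replicate block gave 9325 calls. Same-numbered testis and liver libraries correlated at only 0.03, 0.03 and 0.06 in their deviations, though each correlated best with its own number. Such weak values cannot tell whether the numbers pair the samples, and the labels do not say. The number of genes within the narrow interval ran from 208 to 690 over libraries left out. The X median minus the autosomal median ran from -1.07 to -0.92 over libraries left out and was -1.30 with a mean of at least 50 counts; the cause was not tested.

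Of 143 named genes tested, 129 kept direction and side of the threshold throughout. Hnrnpk was 0.30 with table totals and Tuba1b 0.42, and Tuba1b ran from -0.016 to 0.14 over libraries left out. Of the genes nearest 0, Klhdc10 was 0.0058 with RLE, 0.36 with table totals, 0.00039 with no filter, 0.0014 with the replicate block and 0.0097 with DESeq2. Setd3 was 0.36 with table totals and -0.011 with a mean of at least 50 counts, where Camk2n1 was -0.0083. Pink1 was 0.0033 with RLE, 0.35 with table totals, 0.011 with the replicate block and 0.0068 with DESeq2. Rab11b was 0.0033 with RLE, 0.35 with table totals and 0.0069 with DESeq2. Over libraries left out, Klhdc10 ran from -0.043 to 0.052, Setd3 from -0.020 to 0.025, Pink1 from -0.15 to 0.11, Rab11b from -0.019 to 0.0081 and Camk2n1 from -0.14 to 0.16. The call was lost for Zbtb16, Acsl1, Tagln, Gys1 and Pygm in at least 1 setting. A call was gained with table totals for Fmr1, Hnrnpk, Tuba1b, Klhdc10, Setd3, Pink1 (adjusted p = 0.0495) and Rab11b, and for Cela2a with the replicate block and without the first liver library. The planned comparison of skipped exons was not run. Depth limits genes near 1 CPM, about 10 counts in a library.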

Other observations

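Gene families that the lists did not cover were counted by symbol after the values had been seen, and are given with no test. Over all tested genes, 41.4% were higher and 42.1% lower in testis. Of all 16871 listed symbols, 4612 were testis-only and 911 liver-only. Genes of the protein-making and energy machinery were mostly lower in testis relative to the other genes. Of 81 tested cytosolic ribosomal protein genes, 55 were lower and 8 higher (median log2 fold change -0.88; with table totals 45 lower and 14 higher, median -0.53). Of 36 subunits of respiratory complex I, 31 were lower and 3 higher (median -1.22; with table totals 26 lower and 4 higher). Of 18 proteasome core subunits, 15 were lower, and the 2 higher were Psma6 and Psma8 (with table totals 14 lower and 2 higher). Kinesins, the motors of microtubules, went the other way: 16 of 23 tested were higher and 4 lower (median 4.12). With table totals 17 were higher and 4 lower. A further 14 of 37 listed kinesins were testis-only. Testis-only genes included 21 of 30 listed Adam genes, membrane proteases and adhesion proteins of which several act in fertilization, and 18 of 28 listed Spata genes. Liver-only genes included 42 of 75 listed Cyp genes, the cytochromes P450, and 17 of 39 listed Serpin genes.

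Long noncoding genes were listed mainly for testis. By the GENCODE annotation, 627 were testis-only, 54 liver-only and 162 tested. Of those tested, 71 (43.8%) were higher and 45 (27.8%) lower in testis, against 41.4% and 42.1% of all tested genes. The share called higher was thus near that of all genes. Testis-only genes made up 78.9% of the long noncoding genes in the testis table, against 25.1% of its protein-coding genes. Only 18 of the 627 reached a mean of 100 CPM.

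Variation between liver libraries was uneven across genes. Of 8054 genes with at least 10 CPM in liver, 154 had a coefficient of variation over 50%, against 1 of 7864 in testis.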
